A study of Mus musculus with 8 samples.

Results

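The genes described here code for tubulins, kinesins, dyneins and other proteins of the microtubule cytoskeleton. They are the genes whose annotated symbol starts with Tuba, Tubb, Tubg, Kif, Dync, Dynl, Dctn, Mapre or Stmn, together with the 5 tubulin folding cofactors Tbca to Tbce. The platform annotation gave 74 such genes on 113 probes, and 68 of them, on 107 probes, were measured on 3 or more arrays of each condition and entered the test of 14015 features. The other 6 are given below with the values they had. Of the 68, 57 had a value on all 8 arrays.

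Dual-colour cDNA arrays compared 2 mouse embryonic stem cell lines, HM-1, an Hprt-deficient line, and R1, a line much used for gene targeting, which were labelled with different dyes and hybridised together. On 4 arrays both lines had been given nocodazole, and on 4 arrays both were untreated, so every array holds both lines and a value is a log2 ratio between them. HM-1 carried Cy5 on nocodazole replicates 1, 2 and 3 and on untreated replicates 1 and 2, and Cy3 on nocodazole replicate 4 and untreated replicates 3 and 4. The design text states a dye swap of 50%, and the protocols speak of organs and of a control animal pool, neither of which matches these channel labels. The labels name no dose or duration of nocodazole, no passage number and no feeder cells. Nothing says that replicates were separate cultures, so the p-values speak of the spread among these 8 arrays alone, and that spread may be technical. A difference between the conditions is a change in the ratio of the lines. An equal response of both lines to the drug leaves the ratio where it was, so these arrays cannot show it.

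Microtubules are hollow polymers of alpha and beta tubulin dimers, nucleated at their minus ends by gamma tubulin complexes and growing mainly at their plus ends. Most kinesins walk towards plus ends, cytoplasmic dynein with its partner dynactin walks towards minus ends, end-binding proteins ride on growing ends, and stathmins bind free dimers. Nocodazole binds beta tubulin and prevents polymerisation, which holds dividing cells in mitosis, and in animal cells a rise in free tubulin dimers is known to speed the decay of tubulin mRNAs.

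The sources used here do not state the direction of the deposited ratios. The value that stands for a ratio with a denominator of 0 was 16.484 to 16.987 with HM-1 in Cy5. With HM-1 in Cy3 it was -16.356, -16.852 and -16.837, the sign that turning these arrays before deposit would give. Over all features, arrays of like dye correlated at 0.016 to 0.227 and arrays of unlike dye at -0.184 to 0.006. What set that contrast was not tested. Signs are kept as deposited and neither line is called higher. A reading with the 3 arrays with HM-1 in Cy3 turned in sign is given beside the comparisons. If they were turned before deposit, that reading undoes the step. Each array was centred on its median. An array held values for 17928 to 19445 probes, without intensities, so how bright a spot was is unknown. A ratio array gives no level of a gene, so the labelled cell type could not be checked against levels of its markers. Tubulin coding sequences are closely alike, the probe sequences were not used here, and how much of a tubulin probe's signal comes from a related gene was not tested.

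No microtubule gene passed the test in any of the 4 comparisons made. By limma with Benjamini-Hochberg adjustment at 0.05, 0 of 68 members and 0 of 14015 features (0%) passed in each of the change of the line ratio between conditions, the line ratio with nocodazole, the line ratio untreated and the ratio averaged over the conditions. Below an unadjusted p of 0.05 the change held 4 members, Tubb4a, Kif5b, Kif1b and Tubb2a, which is 5.88% of the 68, against 465 of all features (3.32%). With nocodazole there was 1 such member, Tubgcp2, against 405 of all features (2.89%). Untreated there were 5, Kif5b, Tubb6, Tubb4a, Tubg1 and Kif20b, against 888 of all features (6.34%), and over both conditions there were 3, Kif5b, Tubb6 and Tubg1, against 775 (5.53%). These shares lie near the background. The smallest limma adjusted p of a member was 0.996 in the change, 0.999 with nocodazole, 0.685 untreated and 0.897 over both conditions, and the genes named below are therefore given by their values.

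As a family the microtubule genes lay at the middle of each array. Their median log2 ratio was -0.04, -0.01, 0.05 and 0.003 in nocodazole replicates 1 to 4, against 0.02, 0.01, -0.05 and -0.05 in untreated replicates 1 to 4. The mean of these medians was 0.001 ± 0.037 with nocodazole and -0.016 ± 0.037 untreated (SD, n = 4 each), which overlap. The fitted change was positive for 29 members and negative for 39, with a median of -0.03, against a median of -0.002 over all features tested. For 21 members (30.9%) the 95% interval of the change lay within 1.5-fold either way, against 28.7% of all features tested, so for these a larger change in the ratio lies outside the interval. The ratio itself was bounded in the same way for 32 members with nocodazole (47.1%, against 43.7% of all features), 37 untreated (54.4%, against 45.3%) and 41 over both conditions (60.3%, against 58.7%).

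**Figure D1:**
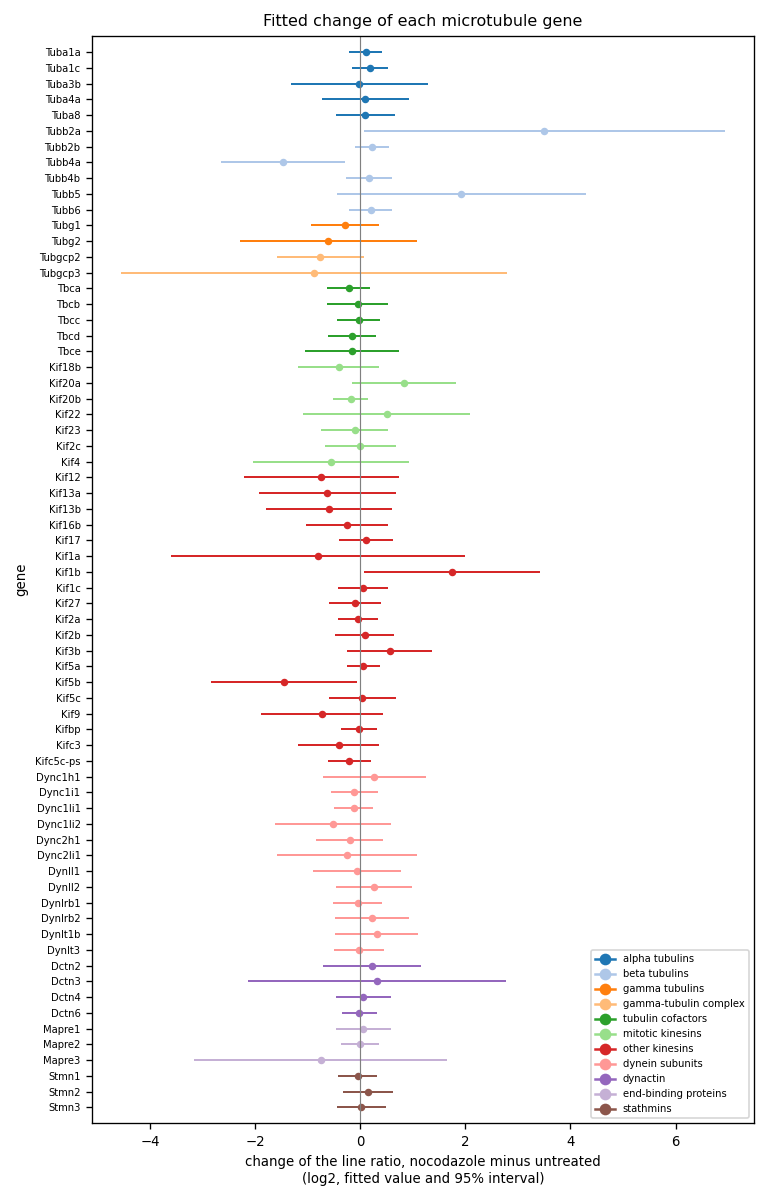
Fitted change of the line ratio (log2, nocodazole minus untreated, horizontal axis) of the 68 tested microtubule genes with its 95% interval, coloured by role. Most points lie near 0, and the intervals of Tubb2a, Tubb4a, Kif1b and Kif5b, unadjusted, leave out 0.

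Alpha tubulins form the minus-end side of the tubulin dimer. Of 6 annotated, 5 were tested, and 4 of the 5 had a positive fitted change, between -0.02 and 0.18 in all; with the Cy3 arrays turned 3 of the 5 did. Tuba1a, a main alpha tubulin of dividing cells and young neurons, had log2 ratios of 0.04, -0.10, 0.11 and -0.03 in nocodazole replicates 1 to 4, against 0.02, -0.12, -0.23 and -0.17 in untreated replicates 1 to 4. All 8 values lay within 0.5 of 0, the conditions overlapped, and the fitted change was 0.10 ± 0.13 (SE) with a 95% interval of -0.20 to 0.40. Tuba1c, a broadly used alpha tubulin read by 2 probes, had -0.04, -0.08, 0.10 and 0.08 in nocodazole replicates 1 to 4, against -0.11, -0.13, -0.07 and -0.37 in untreated replicates 1 to 4. Untreated replicate 4 was the lowest of these, all untreated values were negative, and the fitted change was 0.18 ± 0.14 (SE). The 2 probes of Tuba1c lay a median of 0.22 apart on an array.

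Tuba4a, an alpha tubulin whose gene is known to lack the usual encoded end tyrosine, had 0.68, -0.46 and -0.51 in nocodazole replicates 1, 2 and 4, against -0.12, -0.32, -0.37 and -0.18 in untreated replicates 1 to 4. Nocodazole replicate 1 was high and nocodazole replicate 3 was missing, and the fitted change was 0.10 ± 0.32 (SE). Tuba8, an alpha tubulin of restricted tissues, had 0.14, -0.08, 0.11 and 0.03 in nocodazole replicates 1 to 4, against -0.64, 0.15, 0.26 and 0.36 in untreated replicates 1 to 4, with untreated replicate 1 the lowest and a fitted change of 0.10 ± 0.23 (SE). Tuba3b, known mainly from testis, had 0.45, -0.66, 1.74 and 0.14 in nocodazole replicates 1 to 4, against -0.10, 0.73, 0.52 and 0.55 in untreated replicates 1 to 4. Nocodazole replicate 3 was its highest value, the conditions overlapped, and its fitted change was -0.02 ± 0.54 (SE), with an interval of -1.30 to 1.27. Tuba1b, the alpha tubulin usually most used in cultured cells, had no value on any untreated array and was not tested; its nocodazole values were -1.09, 0.24 and 0.27 in replicates 1, 2 and 4.

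Beta tubulins carry the site at which nocodazole binds, and 6 of 7 annotated were tested. They divided into 3 with values within 1 of 0 on every array, Tubb2b, Tubb4b and Tubb6, and 3 with values beyond 1 on some arrays, Tubb2a, Tubb4a and Tubb5. Tubb4b, a broadly used beta tubulin, had -0.18, 0.20, 0.35 and 0.20 in nocodazole replicates 1 to 4, against 0.15, 0.02, -0.12 and -0.29 in untreated replicates 1 to 4. The conditions overlapped, and the fitted change was 0.17 ± 0.18 (SE), with an interval of -0.25 to 0.59. Its 2 probes lay a median of 0.12 apart on an array and both gave nocodazole means of 0.14 to 0.15 and untreated means of -0.07 to -0.06. Tubb2b, a beta tubulin of the developing brain, had 0.11, 0.11, 0.12 and 0.01 in nocodazole replicates 1 to 4, against 0.05, -0.06, -0.34 and -0.46 in untreated replicates 1 to 4. Untreated replicates 3 and 4, both with HM-1 in Cy3, were its lowest, and with only the Cy5 arrays the change was 0.12, against 0.22 ± 0.13 (SE) in the fit over all arrays.

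Tubb6, a beta tubulin found in many cell types outside the brain, had 0.09, -0.31, -0.10 and -0.15 in nocodazole replicates 1 to 4, against -0.11, -0.21, -0.52 and -0.68 in untreated replicates 1 to 4. Every untreated value was negative, and nocodazole replicate 1 was the only positive value. Its fitted ratio was -0.19 ± 0.12 (SE) with nocodazole and -0.38 ± 0.11 (SE) untreated, where the limma adjusted p was 0.758, and its fitted change was 0.20 ± 0.16 (SE). With the Cy3 arrays turned, its untreated ratio was 0.22, of the opposite sign.

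Tubb5, the main beta tubulin of many dividing cells, had -0.53, 2.47, 3.17 and 0.74 in nocodazole replicates 1 to 4, against -1.72, -0.72, 0.87 and 0.35 in untreated replicates 1 to 4. Nocodazole replicates 2 and 3 were the highest and untreated replicate 1 the lowest, and the conditions overlapped. It averaged 1.46 ± 1.67 with nocodazole (SD, n = 4) and -0.30 ± 1.15 untreated (SD, n = 4), and the fitted change was 1.92 ± 0.98 (SE), with an interval of -0.43 to 4.28. Of its 8 values, 4 were ratios of 2 whole numbers no greater than 10. Without untreated replicate 1 its change was 1.34, and without nocodazole replicate 4 it was 2.92.

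Tubb2a, a beta tubulin best known from neurons, was read by 1 probe on 6 arrays, with 1.76, 1.31 and 0.17 in nocodazole replicates 2, 3 and 4, against -4.10, -3.67 and 0.52 in untreated replicates 1, 2 and 3. Untreated replicates 1 and 2 were far below all others, while untreated replicate 3 lay among the nocodazole values, so the conditions overlapped. Its value in nocodazole replicate 1 was a coded ratio with a denominator of 0 and was left out. The fitted change was 3.50 ± 1.29 (SE), the largest of the family, with an interval of 0.09 to 6.91, and with that coded value kept it was 7.23. On the Cy5 arrays alone, 2 of each condition, the change was 5.42 with a limma adjusted p of 0.399 and the untreated ratio -3.89 with an adjusted p of 0.254, the smallest of a member under any setting tried.

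Tubb4a, a beta tubulin of brain and of myelin-forming cells, had -1.12, -0.41, -0.47 and 0.07 in nocodazole replicates 1 to 4, against 1.76, 0.54, 1.73 and 0.13 in untreated replicates 1 to 4. All nocodazole values lay below all untreated ones, with nocodazole replicate 4 and untreated replicate 4 nearly level. Among the 68 members 2 (2.94%), Tubb4a and Kif20b, had conditions that did not overlap, against 378 of all features (2.7%); both had nocodazole below untreated, as did 205 of all features (1.46%), and 0 members had nocodazole above, against 173 of all features (1.23%). With the Cy3 arrays turned neither Tubb4a nor Kif20b was separated, and the 3 members without overlap (4.41%) were Dync2h1, Dynll2 and Tubb2a, against 4.59% of all features. The fitted change of Tubb4a was -1.47 ± 0.49 (SE) with a limma adjusted p of 0.996, and its untreated ratio was 1.04 ± 0.33 (SE) with an adjusted p of 0.758. With the Cy3 arrays turned its untreated ratio was 0.11 (limma adjusted p = 0.97). Its 2 probes disagreed. The first lay between -0.08 and 0.13 on all 8 arrays, and the second had -2.17, -0.75, -1.01 and 0.10 with nocodazole and 3.45, 0.99 and 3.44 untreated, with no value in untreated replicate 4. Of the 7 values of the second probe, 3 equalled ratios of whole numbers, and on the first probe the conditions overlapped, so the separation rests on the second.

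Tubb3, the beta tubulin that marks neurons, had log2 ratios of 0.15, 1.89, 3.36 and 0.86 in nocodazole replicates 1 to 4 and no value on an untreated array, and was not tested. It was the only member with values on all nocodazole arrays and none untreated, a pattern that 52 of 9930 named genes had, while 3 had the opposite.

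**Figure D2:**
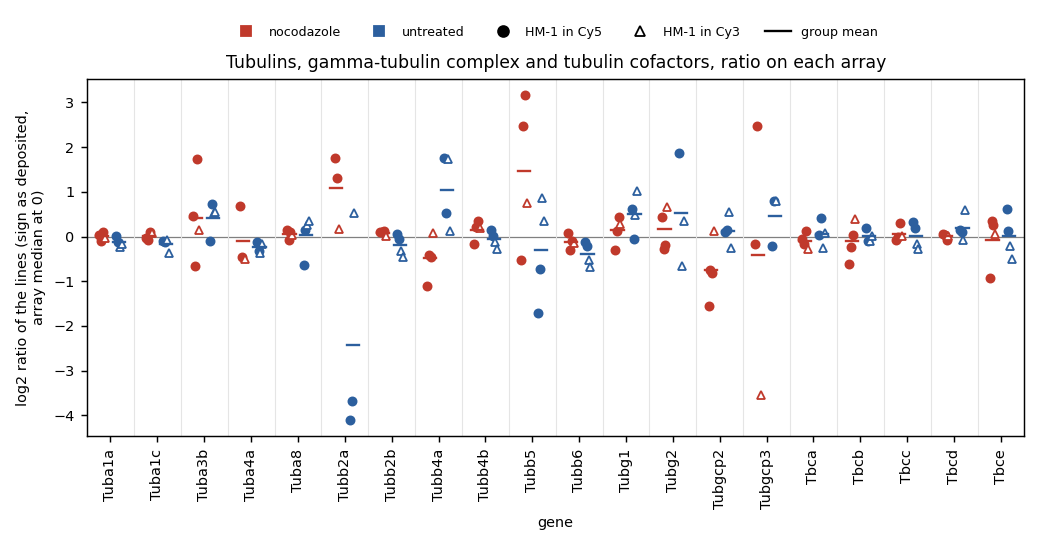
Log2 ratio of the lines on each array (vertical axis, sign as deposited) for the tested tubulins, gamma tubulin complex genes and tubulin cofactors, nocodazole left of untreated for each gene. Filled circles are arrays with HM-1 in Cy5, open triangles arrays with HM-1 in Cy3, and bars group means. Tubb2a, Tubb4a, Tubb5, Tubg2 and Tubgcp3 spread widely, and Tuba1a, Tuba1c, Tubb2b and Tubb4b stayed within 0.5 of 0.

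Gamma tubulin nucleates microtubules at centrosomes and spindles, within complexes built with the Tubgcp proteins. Tubg1, the main gamma tubulin of dividing cells, had -0.29, 0.13, 0.43 and 0.27 in nocodazole replicates 1 to 4, against 0.61, -0.06, 0.48 and 1.02 in untreated replicates 1 to 4. Untreated replicate 4 was its highest value, nocodazole replicate 1 its lowest, and the conditions overlapped. Its fitted ratio was 0.22 ± 0.19 (SE) with nocodazole, 0.51 ± 0.18 (SE) untreated (limma adjusted p = 0.758) and 0.37 ± 0.13 (SE) over both conditions (limma adjusted p = 0.897), and the change was -0.29 ± 0.26 (SE). With the Cy3 arrays turned, its untreated ratio was -0.24. Tubg2, a second gamma tubulin gene best known from brain, had 0.45, -0.28, -0.20 and 0.66 in nocodazole replicates 1 to 4, against 1.87, -0.65 and 0.35 in untreated replicates 1, 3 and 4. Untreated replicate 1 stood highest, and 3 of its 7 values were ratios of whole numbers. Its value in untreated replicate 2 was a coded ratio and was left out, and its fitted change was -0.61 ± 0.67 (SE). With that coded value kept the change was -5.70, without nocodazole replicate 4 it was -1.88, and with the Cy3 arrays turned it was -1.38 (limma adjusted p = 0.934).

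Tubgcp2, a core subunit of the small gamma tubulin complex, had -1.54, -0.75, -0.82 and 0.11 in nocodazole replicates 1 to 4, against 0.11, 0.14, 0.54 and -0.26 in untreated replicates 1 to 4. Nocodazole replicates 1, 2 and 3 lay below every untreated value, and nocodazole replicate 4 lay among the untreated ones. Its fitted ratio was -0.63 ± 0.25 (SE) with nocodazole, where the limma adjusted p was 0.999, and its fitted change was -0.76 ± 0.34 (SE). A probe with a value on 5 arrays carried this difference, with nocodazole values of -2.98, -1.30 and -0.94. The other, on all 8 arrays, averaged -0.23 ± 0.35 with nocodazole and 0.04 ± 0.22 untreated (SD, n = 4 each). A coded value of the first of these probes, in untreated replicate 2, was left out, and with it kept the change was -3.43. Tubgcp3, its partner in the complex, had -0.17, 2.47 and -3.53 in nocodazole replicates 1, 2 and 4, against -0.20, 0.80 and 0.79 in untreated replicates 1, 2 and 3. Nocodazole replicates 2 and 4 lay at opposite ends, a coded ratio in untreated replicate 4 was left out, and the interval of the change was -4.53 to 2.78.

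Tubulin folding cofactors assemble the alpha and beta dimer, Tbcb and Tbce handling alpha tubulin, Tbca and Tbcd beta tubulin, and Tbcc releasing the finished dimer. All 5 were tested, and in each the conditions overlapped. Their fitted changes, as deposited, were negative, between -0.22 and -0.03 with a median of -0.16, as were those of 7052 of all 14015 features. Without nocodazole replicate 1 the change was positive for Tbcb (0.08), Tbcc (0.03) and Tbce (0.12), so their sign rests on that array. With the Cy3 arrays turned it was positive for Tbcd (0.02). That of Tbca stayed negative under every alternative processing, between -0.33 and -0.09. Tbca had -0.05, -0.16, 0.12 and -0.27 in nocodazole replicates 1 to 4, against 0.02, 0.40, -0.25 and 0.08 in untreated replicates 1 to 4. Its fitted change was -0.22 ± 0.16 (SE), and -0.09 with the Cy3 arrays turned, where that of Tbce was -0.45, of Tbcb -0.37 and of Tbcc -0.20. Tbcc had -0.08, -0.01, 0.30 and 0.01 in nocodazole replicates 1 to 4, against 0.32, 0.18, -0.18 and -0.28 in untreated replicates 1 to 4, with a fitted change of -0.03 ± 0.16 (SE).

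Tbcd had 0.06, 0.03, -0.07 and 0.01 in nocodazole replicates 1 to 4, against 0.14, 0.09, -0.08 and 0.59 in untreated replicates 1 to 4. Untreated replicate 4 was its highest value, and the fitted change was -0.16 ± 0.18 (SE). Tbcb, read by 2 probes a median of 0.92 apart, had -0.61, -0.23, 0.02 and 0.40 in nocodazole replicates 1 to 4, against 0.20, -0.10, -0.10 and 0.01 in untreated replicates 1 to 4. Tbce had -0.92, 0.34, 0.25 and 0.05 in nocodazole replicates 1 to 4, against 0.61, 0.12, -0.20 and -0.51 in untreated replicates 1 to 4. Nocodazole replicate 1 was the lowest value of both Tbcb and Tbce, and their fitted changes were -0.05 ± 0.23 (SE) and -0.16 ± 0.37 (SE).

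Mitotic kinesins drive spindle assembly, chromosome movement and cytokinesis, and their messages are known to peak in G2 and mitosis, when nocodazole holds cells. The promoters of such genes are known to hold cell cycle genes homology regions (CHR) and CCAAT boxes. Among members 53 of 74 had a promoter in RefSeq's mouse table (assembly GRCm38.p6), taken from 250 bases before to 50 after the start. A CHR was searched as TTTGAA or TTCGAA and a CCAAT box as CCAAT, each on both strands; in the 4 promoters printed no CHR match overlaps a CCAAT match. All 6 mitotic kinesins in the table, Kif18b, Kif20b, Kif22, Kif23, Kif2c and Kif4, held a CHR match, against 11 of the 53 members (20.8%) and 21.7% of 27025 genes. A CCAAT match stood in 41.5% of members and 41.1% of all genes. Both motifs stood in 4 mitotic kinesins, in 8 of the 53 members (15.1%) and in 8.6% of all genes. The promoters of these 4 mitotic kinesins, the ones with both motifs, are printed to show where the motifs lie, with CHR and CCAAT matches of either strand in capitals. Kif18b is read from the minus strand of chr11:102925075-102925374, Kif22 from the minus strand of chr7:127042371-127042670, Kif23 from the minus strand of chr9:61946750-61947049 and Kif4 from the plus strand of chrX:100625815-100626114.
Kif18b: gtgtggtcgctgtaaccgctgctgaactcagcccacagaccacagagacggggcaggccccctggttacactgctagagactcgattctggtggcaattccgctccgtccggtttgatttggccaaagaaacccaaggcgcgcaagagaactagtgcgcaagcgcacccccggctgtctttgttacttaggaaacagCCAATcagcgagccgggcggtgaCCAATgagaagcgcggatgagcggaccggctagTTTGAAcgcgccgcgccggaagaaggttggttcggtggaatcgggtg
Kif22: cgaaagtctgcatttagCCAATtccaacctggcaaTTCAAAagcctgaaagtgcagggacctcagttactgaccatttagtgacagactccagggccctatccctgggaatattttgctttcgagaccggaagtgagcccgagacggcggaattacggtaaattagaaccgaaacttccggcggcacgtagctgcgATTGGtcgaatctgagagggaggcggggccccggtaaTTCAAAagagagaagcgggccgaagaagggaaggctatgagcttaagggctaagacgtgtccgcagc
Kif23: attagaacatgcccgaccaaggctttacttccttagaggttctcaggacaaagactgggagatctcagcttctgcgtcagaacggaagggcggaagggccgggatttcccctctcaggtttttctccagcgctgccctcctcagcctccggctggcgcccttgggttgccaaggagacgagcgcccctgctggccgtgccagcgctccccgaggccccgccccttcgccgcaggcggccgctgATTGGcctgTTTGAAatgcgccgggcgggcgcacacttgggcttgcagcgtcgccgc
Kif4: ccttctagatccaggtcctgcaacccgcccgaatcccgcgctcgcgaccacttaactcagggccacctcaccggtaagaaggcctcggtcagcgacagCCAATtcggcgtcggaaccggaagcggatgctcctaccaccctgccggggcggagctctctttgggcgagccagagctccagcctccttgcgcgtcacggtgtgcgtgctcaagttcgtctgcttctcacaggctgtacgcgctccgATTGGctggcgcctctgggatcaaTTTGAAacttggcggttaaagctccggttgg

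In Kif18b, Kif23 and Kif4 the CHR match began 3, 2 and 19 bases after the annotated start, and in Kif22 the nearer of 2 matches began 17 bases before it. The nearest CCAAT match began 30 bases before the start in Kif18b, 54 in Kif22, 7 in Kif23 and 5 in Kif4. A match is a description of these letters and not a bound site.

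All 7 annotated mitotic kinesins were tested. Their median log2 ratio was 0.07, 0.05, -0.46 and 0.04 in nocodazole replicates 1 to 4, against -0.17, -0.12, 0.01 and 0.40 in untreated replicates 1 to 4. The conditions overlapped, with nocodazole replicate 3 the lowest array and untreated replicate 4 the highest. Fitted changes ran between -0.56 and 0.83, 3 positive and 4 negative.

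Kif20b, a kinesin of the late spindle and cytokinesis, had 0.07, -0.06, 0.04 and 0.04 in nocodazole replicates 1 to 4, against 0.16, 0.21, 0.10 and 0.40 in untreated replicates 1 to 4. All nocodazole values lay below all untreated ones, over a range of less than 0.5 in all, and the fitted change was -0.18 ± 0.13 (SE). Its untreated ratio was 0.22 ± 0.09 (SE) with a limma adjusted p of 0.784, and with the Cy3 arrays turned it was -0.03 and the change -0.03. Kif20a, a kinesin needed for cytokinesis, had -0.69, -0.89, -0.15 and 1.83 in nocodazole replicates 1 to 4, against -1.14, -0.43, -0.09 and -0.17 in untreated replicates 1 to 4. Nocodazole replicate 4 stood far above the others, and without it the fitted change was 0.21, against 0.83 ± 0.41 (SE) over all arrays and -0.57 with the Cy3 arrays turned. Of its 2 probes, the first had a value on 4 arrays, between -2.27 and 3.44, and the second lay between -0.43 and 0.22 on all 8.

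Kif22, a chromosome-arm motor, had 1.07, 0.05, -0.34 and 0.07 in nocodazole replicates 1 to 4, against -1.93, 0.51, 0.004 and 0.80 in untreated replicates 1 to 4. Untreated replicate 1 was its lowest value and nocodazole replicate 1 its highest. Kif4, another chromosome-binding kinesin, also of the central spindle, had 0.22, 0.12, -1.13 and -0.02 in nocodazole replicates 1 to 4, against -0.44, -0.18, 0.62 and 2.64 in untreated replicates 1 to 4. Untreated replicate 4 stood above all others. Kif23, the motor of the centralspindlin complex, stayed between -0.61 and 0.24 with nocodazole and between -0.47 and 0.18 untreated. Kif2c, which takes apart microtubule ends at centromeres, stayed between -0.63 and 0.26 with nocodazole and between -0.33 and 0.45 untreated, and its fitted change was 0.004 ± 0.28 (SE). Of its 2 probes, 1 stood at -1.02 in nocodazole replicate 3 and at 1.07 in untreated replicate 4. Kif18b, a plus-end kinesin of mitotic astral microtubules, had -0.13, -0.06, -0.46 and -0.30 in nocodazole replicates 1 to 4, against -0.17, 0.90 and 0.16 in untreated replicates 1, 3 and 4. All its nocodazole values were negative and untreated replicate 1 lay among them; the value in untreated replicate 2 was a coded ratio and was left out.

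Other kinesin symbols numbered 21, of which 19 were tested, and 7 had a positive fitted change and 12 a negative one. Kif5b, the broadly used heavy chain of conventional kinesin, had 0.53, 1.21, 2.10 and -1.05 in nocodazole replicates 1 to 4, against 1.95, 1.20 and 1.35 in untreated replicates 2, 3 and 4. Its untreated values were all above 1, nocodazole replicate 4 was the only negative value, and nocodazole replicate 3 was the highest of all, so the conditions overlapped. Its fitted ratio was 1.76 ± 0.39 (SE) untreated (limma adjusted p = 0.685) and 1.03 ± 0.25 (SE) over both conditions (limma adjusted p = 0.897), and its change was -1.45 ± 0.55 (SE). Of its 7 values, 5 equalled ratios of whole numbers, the largest share of any member. With the Cy3 arrays turned the untreated ratio was 0.08 and the change 0.74, of the opposite sign, and without nocodazole replicate 4 the change was -0.68.

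The other conventional kinesin heavy chains lay near 0. Kif5a, known from neurons, had 0.08, 0.05, 0.21 and -0.02 in nocodazole replicates 1 to 4, against 0.17, 0.08, -0.20 and -0.20 in untreated replicates 1 to 4, and its 2 probes lay a median of 0.07 apart. Kif5c, also best known from neurons, lay between -0.19 and 0.55 with nocodazole and between -0.42 and 0.35 untreated. Their fitted changes were 0.06 ± 0.12 (SE) and 0.04 ± 0.25 (SE), with overlapping conditions.

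Kif1b, a carrier of mitochondria and synaptic vesicle precursors, had 0.88, 0.68 and -0.10 in nocodazole replicates 1, 2 and 3, against -2.28, -0.23, 0.29 and -0.32 in untreated replicates 1 to 4. Untreated replicate 1 was far below the rest and untreated replicate 3 lay above nocodazole replicate 3. Its fitted change was 1.74 ± 0.67 (SE), and it was 0.72 without untreated replicate 1. All its nocodazole values came from arrays with HM-1 in Cy5, so with the dye term this change compares Cy5 arrays alone. None of its 7 values was a ratio of whole numbers. Kif1a, its relative in neurons, had -1.18, 0.10, -0.13 and -0.47 in nocodazole replicates 1 to 4, against -2.58, 2.47, 2.16 and 0.18 in untreated replicates 1 to 4. Untreated replicates 1 and 2 lay at opposite ends. Its 2 probes shared only nocodazole replicates 3 and 4, where they lay 4.19 and 2.13 apart. The median of these gaps, 3.16, is the widest of any member but rests on those arrays alone. Kif1c, another kinesin of that family, stayed between -0.47 and 0.17 with nocodazole and between -0.39 and 0.10 untreated.

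Kif3b, a subunit of the kinesin that carries cargo into cilia, had 0.30, 0.07, -0.51 and 1.39 in nocodazole replicates 1 to 4, against -0.02, -0.40, -0.23 and 0.48 in untreated replicates 1 to 4. Nocodazole replicate 4 was its highest value, averaged from probes at 3.03 and -0.25, and nocodazole replicate 3 was its lowest. Its fitted ratio with nocodazole was 0.52 ± 0.24 (SE). That ratio was 0.12 without nocodazole replicate 4 and -0.51, of the opposite sign, with the Cy3 arrays turned. Kif12, a kinesin known from kidney, had -1.17, 0.07, -2.56 and 0.03 in nocodazole replicates 1 to 4, against -0.27, -0.03, 0.69 and -0.32 in untreated replicates 1 to 4. Nocodazole replicates 1 and 3 were low, and the other 2 nocodazole values lay among the untreated ones. Kif9, known from cilia and sperm tails, had -0.31, 0.45 and -0.23 in nocodazole replicates 1, 3 and 4, against 0.52, 0.73, 1.60 and -0.07 in untreated replicates 1 to 4. Untreated replicate 3 stood highest, and its fitted untreated ratio was 0.70 ± 0.30 (SE). That ratio was 0.31 without untreated replicate 3 and -0.07 with the Cy3 arrays turned.

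Kifc3, a minus-end-directed kinesin of cell junctions and the Golgi, had -0.41, -0.18, 0.47 and 0.09 in nocodazole replicates 1 to 4, against -0.27, 0.77, 0.92 and 0.54 in untreated replicates 1 to 4. Untreated replicates 2 to 4 were above every nocodazole value and untreated replicate 1 was below 0, so the conditions overlapped. Kif2a, a relative of Kif2c that shortens microtubules, had -0.18, -0.18, 0.06 and -0.10 in nocodazole replicates 1 to 4, against 0.16, -0.04, -0.19 and -0.35 in untreated replicates 1 to 4. Its values lay within 0.5 of 0, as did those of Kif1c, Kif2b, Kif5a and Kifbp, a kinesin-binding protein that is no motor. Kif2b did so as a mean of 3 probes that disagreed, with -2.03, 1.29 and -0.75 in nocodazole replicate 3. Kif13a, Kif13b and Kif16b, carriers of endosomes and vesicles, had fitted changes of -0.62 ± 0.52 (SE), -0.59 ± 0.49 (SE) and -0.25 ± 0.32 (SE), with nocodazole replicate 3 the lowest value of Kif13b and Kif16b. Kif17 and Kif27, both known from cilia, had fitted changes of 0.12 ± 0.21 (SE) and -0.10 ± 0.20 (SE), and Kifc5c-ps, a kinesin pseudogene by its symbol, had -0.21 ± 0.16 (SE). Kif21a and Kifc2 had too few values to be tested, Kif21a with 0.21 and 1.21 in nocodazole replicates 1 and 2, against 0.15, 0.30 and 0.09 in untreated replicates 2 to 4, and Kifc2 with values between -2.81 and 0.27 with nocodazole and between -1.17 and 1.73 untreated.

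**Figure D3:**
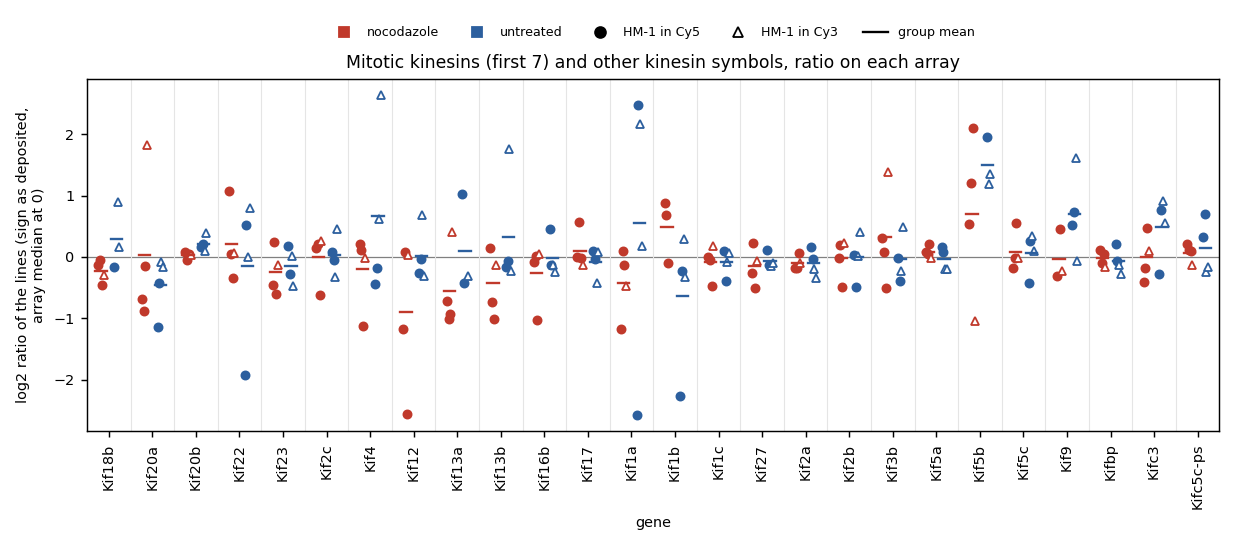
Log2 ratio of the lines on each array (vertical axis, sign as deposited) for the 7 mitotic kinesins, at the left, and the 19 other tested genes with a kinesin symbol, nocodazole left of untreated for each gene. Filled circles are arrays with HM-1 in Cy5, open triangles arrays with HM-1 in Cy3, and bars group means. Kif20b separates by condition within a narrow range, and Kif5b has its only negative value on nocodazole replicate 4.

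Dynein subunits numbered 13, of which 12 were tested, and 4 had a positive and 8 a negative fitted change, between -0.52 and 0.31. Dync1h1, the motor-bearing heavy chain of cytoplasmic dynein, had -0.80, -0.24, 0.50 and 1.38 in nocodazole replicates 1 to 4, against -0.42, 0.39, 0.46 and 0.20 in untreated replicates 1 to 4. Nocodazole replicate 4 was its highest value and nocodazole replicate 1 its lowest, so the untreated values lay between nocodazole ones. The same probe made both extremes, with 3.15 and -1.59, while the other had -0.40 and -0.003. Its fitted ratio with nocodazole was 0.43 ± 0.29 (SE). That ratio was -0.006 without nocodazole replicate 4 and -0.65 with the Cy3 arrays turned (limma adjusted p = 0.887). Dync1i1, an intermediate chain that joins dynein to cargo, had -0.07, -0.09, -0.16 and -0.26 in nocodazole replicates 1 to 4, against 0.24, 0.16, -0.72 and -0.30 in untreated replicates 1 to 4. All nocodazole values were negative, while the untreated ones were positive with HM-1 in Cy5 and negative with HM-1 in Cy3.

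The dye of HM-1 was a term of the fit. At an unadjusted p under 0.05 it held 6 members, Dync1i1, Dync1li1, Dync2li1, Kif20a, Kif5b and Kifc5c-ps, which is 8.82% of the 68, against 9.32% of all features, so the members' share lies near the background. Dync1li1, a light intermediate chain, had 0.08, 0.09, 0.25 and -0.34 in nocodazole replicates 1 to 4, against 0.36, 0.20, -0.05 and -0.44 in untreated replicates 1 to 4. Every Cy5 array was positive and every Cy3 array negative, and the fitted change was -0.12 ± 0.15 (SE). Dync2li1, a subunit of the dynein that works in cilia, had -0.44, -0.01, -2.41 and 0.83 in nocodazole replicates 1 to 4, against -1.06, -0.44, 1.01 and 1.31 in untreated replicates 1 to 4, with the signs of the dyes the other way round. Dync2h1, the heavy chain of the same motor, stayed between -0.49 and 0.23 with nocodazole and between -0.45 and 0.34 untreated.

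Among dynein light chains, Dynlt1b had 0.03, 0.03, -0.90 and 0.28 in nocodazole replicates 1 to 4, against -0.10, -0.28, -0.76 and -0.73 in untreated replicates 1 to 4. All its untreated values were negative, nocodazole replicate 3 was its lowest value, and its fitted ratio over both conditions was -0.31 ± 0.16 (SE), and 0.07 with the Cy3 arrays turned. Nocodazole replicate 3 averaged probes at 0.02 and -1.81. The probe at -1.81 had 4 values, all of them ratios of whole numbers. Dynll2, with 5 probes the most of any member, had 0.05, 0.33, 0.75 and -0.39 in nocodazole replicates 1 to 4, against -0.31, -0.33, 0.23 and 0.02 in untreated replicates 1 to 4. Of those 5 probes, 1 ranged up to 3.02 and held 4 ratios of whole numbers among 8 values, 1 went down to -1.92, and the other 3 stayed within 0.56 of 0. Dynlrb1, Dynlrb2, Dynlt3 and Dynll1 had fitted changes of -0.05 ± 0.19 (SE), 0.22 ± 0.29 (SE), -0.03 ± 0.19 (SE) and -0.07 ± 0.33 (SE), and the light intermediate chain Dync1li2 had -0.52 ± 0.45 (SE). Dync1i2, the intermediate chain of most cell types, was not tested, with -1.76, -0.58, -2.78 and 1.67 in nocodazole replicates 1 to 4, against -0.72 and 0.93 in untreated replicates 1 and 3.

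Dynactin links dynein to cargo and keeps it moving, and all 4 annotated subunits were tested. Dctn6, a subunit of the pointed-end complex, had -0.03, -0.14, 0.14 and -0.02 in nocodazole replicates 1 to 4, against 0.01, 0.08, -0.13 and -0.01 in untreated replicates 1 to 4. This was the steadiest member, with an SD of 0.10 over the arrays and a fitted change of -0.01 ± 0.13 (SE). Dctn4, a subunit of the same end, stayed between -0.02 and 0.34 with nocodazole and between -0.33 and 0.46 untreated, averaged over 3 probes. Of these, 1 stood at 1.47 in untreated replicate 3 and at -1.04 in untreated replicate 4. Dctn2, whose excess is known to break dynactin apart, had -0.90, -0.06, 0.25 and 1.19 in nocodazole replicates 1 to 4, against 0.07, -0.17, -0.18 and 0.59 in untreated replicates 1 to 4, with nocodazole replicates 1 and 4 at opposite ends. Dctn3, of the shoulder of the complex, had -0.88, 0.55, -3.10 and 0.55 in nocodazole replicates 1 to 4, against -0.59, -2.59 and 0.52 in untreated replicates 1, 2 and 3, with nocodazole replicate 3 and untreated replicate 2 far below the rest.

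End-binding proteins track growing plus ends, and all 3 were tested. Mapre1, the broadly used member and read by 4 probes, stayed between -0.07 and 0.18 with nocodazole and between -0.26 and 0.49 untreated. These are means of its probes, of which 1 stood at 2.51 in untreated replicate 3. The fitted change of Mapre1 was 0.06 ± 0.21 (SE) with an interval of -0.44 to 0.56. Mapre2, a relative with 2 probes a median of 0.18 apart, had -0.05, 0.11, 0.09 and -0.14 in nocodazole replicates 1 to 4, against 0.30, -0.003, -0.22 and -0.36 in untreated replicates 1 to 4. Mapre3, best known from neurons and muscle, had -0.99, 1.30, 2.90 and -1.58 in nocodazole replicates 1 to 4, against 0.19, 3.08, -0.63 and -0.34 in untreated replicates 1 to 4. Both of its probes spread alike, the conditions overlapped, and the fitted change was -0.75 ± 0.995 (SE).

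Stathmins bind free tubulin dimers and favour shrinkage, and 3 of 4 were tested. Stmn1, the broadly used stathmin of dividing cells, had -0.08, -0.02, 0.34 and -0.07 in nocodazole replicates 1 to 4, against 0.12, 0.10, -0.04 and 0.05 in untreated replicates 1 to 4. The conditions overlapped, and its fitted change was -0.04 ± 0.15 (SE), with an interval of -0.40 to 0.31. Stmn2 and Stmn3, both known from neurons, had fitted changes of 0.14 ± 0.19 (SE) and 0.02 ± 0.19 (SE), with nocodazole replicate 3 the highest value of both. Stmn4 was not tested, with -0.88, -0.30, -2.20 and 0.60 in nocodazole replicates 1 to 4, against -2.53 and -0.44 in untreated replicates 1 and 2.

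Members differed widely in spread. The SD over the arrays ran between 0.10 for Dctn6 and 2.56 for Tubb2a, with a median of 0.37, against 0.42 over all features tested. It was above 1 for 11 members and under 0.2 for 8. All values lay within 0.5 of 0 for 22 members (32.4%), against 29.9% of all features, and 27 members (39.7%) were further than 1 from 0 on some array, against 44.5%. No member kept 1 sign on every array, against 0.935% of all features; 5 members (7.35%) kept 1 sign on every nocodazole array, against 11.2%, and 8 (11.8%) on every untreated array, against 14.5%. With the Cy3 arrays turned, 13 members (19.1%) kept 1 sign on every nocodazole array, against 17.2% of all features, and 17 (25%) on every untreated array, against 22.2%. The 8 members with 1 untreated sign as deposited were Tubb4a, Tubb6, Tuba1c, Tuba4a, Kif20a, Kif20b, Kif5b and Dynlt1b. Turning reverses untreated replicates 3 and 4 and leaves 1 and 2, so no such member could keep 1 untreated sign there.

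Spread went with values that equal a ratio of whole numbers up to 10, which spots with few units of signal in each channel would give. Of 797 member values, 107 (13.4%) were such ratios within 0.0015 on the log2 scale, and on an array as a whole they made up 11.0% to 19.4% of values, against 4.73% to 5.33% after a shift of the values. The 23 members with none had a median SD of 0.25, the 34 with up to 25% had 0.34, and the 11 with over 25% had 1.03. Of those 11, 6 had an SD above 1, against 3 of the 34 and 2 of the 23. Members share arrays, and the part of dim spots in these spreads was not tested.

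**Figure D4:**
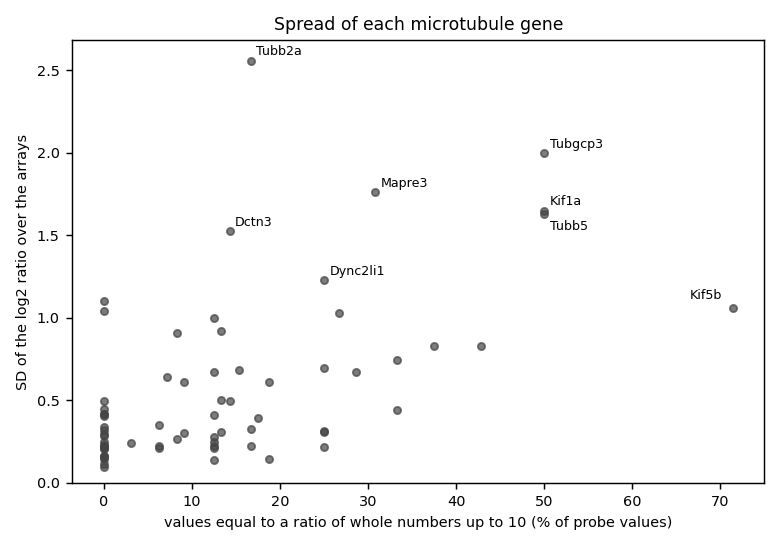
SD of the log2 ratio over the arrays (vertical axis) of each tested microtubule gene against the share of its probe values that equal a ratio of whole numbers up to 10 (horizontal axis, %). Kif5b lies furthest right, and Tubb2a, with 1 such value of 6, lies highest.

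Probes of 1 gene often disagreed. In the 29 members with several probes, the gap on an array was taken between the first pair of probes listed. Its median, pooled over genes and arrays, was 0.40, against 0.46 for 2983 genes of all. Gaps of single genes are medians over arrays of the range of all their probes, which grows with the number of probes. They were narrowest for Kif5a, Tubb4b, Mapre2 and Tuba1c and widest for Kif1a (3.16), Kif20a (1.96), Dynll2 (1.58) and Dync1li2 (1.24). These last gaps exceed the fitted change of each of the 4 genes. The gap of Kif1a rests on nocodazole replicates 3 and 4 alone.

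With the signs of the 3 Cy3 arrays turned, again 0 members and 0 features passed the limma test after adjustment in the 4 comparisons. At an unadjusted limma p under 0.05 there were 6 of the 68 members in the change, against 685 of all features (4.89%). With nocodazole there were 6 of the 68, against 716 of all features (5.11%). Untreated there were 8 of the 68, against 1484 (10.6%), and over both conditions 6 of the 68, against 1491 (10.6%). In that reading 4 members, Dync2li1, Dync1li1, Kif5a and Kifc5c-ps, kept 1 sign on every array, against 3.67% of all features. Dync2li1 then had -0.44, -0.01, -2.41 and -0.83 in nocodazole replicates 1 to 4, against -1.06, -0.44, -1.01 and -1.31 in untreated replicates 1 to 4. Its ratio over both conditions was -0.96 ± 0.28 (SE; limma adjusted p = 0.352). Turning left the change of Tubb2a at 3.73, of Tubb5 at 1.83 and of Tubgcp2 at -0.74, and moved that of Tubb4a to -0.86. The change of Kif1b, 1.74, rests on the Cy5 arrays alone, so turning the Cy3 arrays could not move it. Of the 31 named genes, 15 had a change of the opposite sign when turned: Tuba1a, Tuba1c, Tuba3b, Tubb2b, Tubb4b, Tubb6, Tubg1, Tbcd, Kif20a, Kif3b, Kif5b, Kif9, Kifc3, Dync1h1 and Dynlt1b. Over the 68 members the turned change was positive for 30 and negative for 38, with a median of -0.03, against -0.003 over all features.

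Lists of other genes gave a setting for these values. Of 67 further microtubule-binding or spindle proteins outside the symbol rule, 43 were tested, and 2, 2, 4 and 3 had an unadjusted p under 0.05 in the change, with nocodazole, untreated and over both conditions. Of 32 G2 and mitosis genes without kinesins, 23 were tested, with 1, 0, 3 and 1 such genes. Over all features the shares at that limma p were 3.32%, 2.89%, 6.34% and 5.53% in the same order. The G2 and mitosis genes had a median change of 0.09, against -0.11 for the mitotic kinesins and -0.002 for all features. By limma, 0 genes of either list passed after adjustment. Marker lists had 8 of 16 embryonic stem cell, 17 of 18 fibroblast, 13 of 17 endoderm and 10 of 20 neural genes tested. The embryonic stem cell list had a median log2 ratio between -0.21 and 0.23 with nocodazole and between -0.02 and 0.41 untreated, and the endoderm list between -0.82 and 0.11 with nocodazole and between -0.58 and -0.11 untreated. The neural list lay between 0.04 and 0.11 with nocodazole and between -0.09 and 0.05 untreated, and the fibroblast list between -0.36 and 0.02 with nocodazole and between -0.17 and 0.09 untreated. The part of other cell types in the ratios of the neuron-related tubulins, kinesins and stathmins was not tested.

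Arrays differed in spread. Nocodazole replicate 3 had the widest values, with an SD of 1.10 over all features tested and 0.98 over the microtubule genes. Of 483 features with 1 sign on the 7 arrays other than nocodazole replicate 1, 385 had the opposite sign there. The same count for each other array in turn gave 60 to 118 opposite features, of 158 to 216, and 0 or 1 members. Correlations of nocodazole replicate 1 with the other arrays over all features ran from -0.17 to 0.11, positive with each of the other Cy5 arrays and negative with each Cy3 array.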

How the data were processed

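Log2 ratios of the lines were read from the value table the authors deposited, with 1 value per probe and array for 20355 probes. How the authors corrected background and normalized is not given in the sources used here. A ratio with a denominator of 0 stands there as the log2 of 100000 before an array's offset. That value is positive on arrays with HM-1 in Cy5 and negative on arrays with HM-1 in Cy3. Values with an absolute log2 above 10 were set to missing. Arrays were centred on their median, and probes of 1 symbol were averaged. Of the probes, 14030 had 1 symbol in the platform annotation, 5 had several and 6320 none.

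The 14015 features with at least 3 values in each condition, out of 16255, were fitted with limma 3.58.1 (lmFit and eBayes) in R 4.3.3, with a term for each condition and for the dye of HM-1. Benjamini-Hochberg adjustment ran over all features, 2-sided, at 0.05. The steps were tested on simulated data. The number of arrays limits the precision. Replicate numbers were checked for pairing and used only as an alternative.

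All tubulins and tubulin cofactors are named, with the 8 members of smallest limma p in each comparison and the others by role. The members, lists and tests were chosen with earlier results of these data known. Promoters are RefSeq's (GRCm38.p6), matched by symbol. Alternatives covered direction, dye, coded values, scaling, filters, probes, weights and leaving out arrays.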

Additional observations from a re-analysis of the deposited data

Results flagged for a closer look

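In 91 groups of 4 arrays examined, 5 had an array far from the other 3, and chance gives about 1 in 20. Tubb2b lay at 0.005 in nocodazole replicate 4, against 0.108 to 0.119 in the other nocodazole arrays. The mitotic kinesins had a median log2 ratio of -0.455 in nocodazole replicate 3, against 0.035 to 0.074 in the others with nocodazole. The stathmins had a median of 0.459 in the same array, against -0.083 to -0.020, and the neural markers a median of 0.114, against 0.038 to 0.043. Nocodazole replicate 3 also had the widest values over all features. The microtubule proteins outside the symbol rule had a median of 0.070 in untreated replicate 3, against -0.050 to -0.039 in the other untreated arrays.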

How the results depend on the processing

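Over 24 alternatives, 8 of them leaving out 1 array each, 0 microtubule genes passed the limma test after adjustment, and the smallest adjusted p of a member was 0.254. Among all features 1 passed in the line ratio with nocodazole with values on all 8 arrays (limma adjusted p = 0.0317), and leaving out 1 array gave 0 to 1 in the change. That 1 came without untreated replicate 1 (limma adjusted p = 0.046). The median of the members on the untreated arrays was 0.0316 with the Cy3 arrays turned and -0.0662 without ratios of whole numbers, a setting chosen after the values were seen, and that on the nocodazole arrays was 0.0491 without centring. With 1 array left out it ran from -0.016 to 0.015 with nocodazole and from -0.04 to 0.003 untreated. Of 2820 values of the 31 named genes under alternatives, 209 changed sign; turning the Cy3 arrays changed the sign of 15, 15, 19 and 20 of the 31 in the change, with nocodazole, untreated and over both conditions. With the replicate number as a block, 0 members passed, with a smallest limma adjusted p of 0.964, 0.9997, 0.643 and 0.772 in the same order, and 2, 2, 7 and 2 members had an unadjusted p under 0.05. For the pairing check, deviations from the mean of each condition were correlated between arrays. Same-numbered arrays gave 0.14, 0.04, -0.05 and 0.13, of which only those of replicates 1 and 4 were over 0.1. The numbers were therefore not taken to pair the arrays. Still, 3 of the 4 nocodazole arrays correlated best with their own number, a hint of pairing from the data and not from the design. That hint is weak. Nocodazole replicate 4 had 0.135 with untreated replicate 4 and 0.131 with untreated replicate 3, all with HM-1 in Cy3. The part of the shared dye was not tested. No intensities were at hand, so what signal over background limits could not be given.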
